A study of Mus musculus with 6 samples.

Results

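Prox1, Foxp2 and Gata4 are genes of 3 DNA-binding transcription factors to which peaks of thyroid hormone receptor α (TRα) were assigned in mouse gastrocnemius, a calf muscle. DNA bound to TRα was pulled down with an antibody and sequenced (ChIP-seq), which gave 1 peak list for each of 6 mice. The mice were 6, 15 and 21 months old, 2 at each age, and the labels, which give no strain, sex, genotype or treatment, call these ages youth, mid and old. Whole muscle was used, so peaks can come from muscle fibres or from the other cells of the tissue. Muscle markers were not measured, and of the 6 muscle regulatory factor genes looked for, among them Myod1 and Myog, 0 were named in the lists. A peak was counted for a gene where annotation text that ran over from its row held a RefSeq protein accession of that gene. Only peaks with such text can be counted, so a gene that is not named may still have peaks, and every count of named genes carries this limit. The 3 genes are 3 of the 395 genes that such text named, and their 107 peaks are 0.0218% of the 491681 peaks in the 6 lists. They were chosen from these lists with their peak numbers, folds and sharing already known, so those values are a description and were not tested.

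TRα is a nuclear receptor that binds DNA with or without its hormone, often paired with a retinoid X receptor, and represses or activates nearby genes accordingly. Prox1 is a homeobox factor known as the switch gene of lymphatic endothelium, and in skeletal muscle it is known for its part in the slow fibre programme and in muscle stem cells. Foxp2 is a forkhead repressor best known from brain circuits of vocal learning. Gata4 is a zinc finger activator known from the formation of the heart and from cardiac muscle genes. The deposited text gave the protein domain as HPD (the prospero domain) for Prox1, Fork_head for Foxp2 and zf-GATA for Gata4. The text that remained for the 3 genes had 5 gene ontology terms in common, among them sequence-specific binding to double-stranded DNA. Terms with the word muscle numbered 9 for Gata4, 3 for Foxp2 and 0 for Prox1 in the text that remained, which holds only part of each entry.

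The lists differed in length and strength. The mice of 6 months had 79040 and 106152 peaks (replicate 1, then replicate 2), those of 15 months 99436 and 29405, and those of 21 months 91661 and 85987. The lowest background of each list corresponds to 3.23 to 5.49 fragments per kb. This takes the shortest peak of each list, 194 to 218 bp, as the fragment length, which was assumed and not measured. A fold over input of 10 or more was reached by 44 peaks of replicate 1 at 6 months and by 108 to 211 peaks of each remaining mouse. Replicate 2 at 15 months had the shortest list. A position without a peak in a list is therefore a peak not detected at this depth, not a site shown to be free of TRα. A peak in 1 list is likewise not by itself a site shown to be bound.

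Peaks of Prox1 lay on chromosome 1, from 189909859 to 190018478 (GRCm39, counted from 1), a stretch of 108.6 kb. Foxp2 peaks lay on chromosome 6 from 14831049 to 15150316, which is 319.3 kb, and Gata4 peaks on chromosome 14 from 63471487 to 63518700, which is 47.2 kb. Within each stretch every peak of every mouse carried the text of that gene, and 0 other peaks fell between. The nearest peaks without the gene's text ended at 189900406 and began at 190030901 around Prox1. They ended at 14824888 and began at 15162643 around Foxp2, and at 63466158 and 63552164 around Gata4. In RefSeq's GRCm38.p6 annotation, used for names and order only, the protein-coding neighbours are Smyd2 and Rps6kc1 for Prox1, Ppp1r3a and Mdfic for Foxp2, and Neil2 and Blk for Gata4. None of these 6 neighbours was named in the lists. Whether a peak lies in a promoter, exon, intron or UTR was not analysed here.

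**Figure D1:**
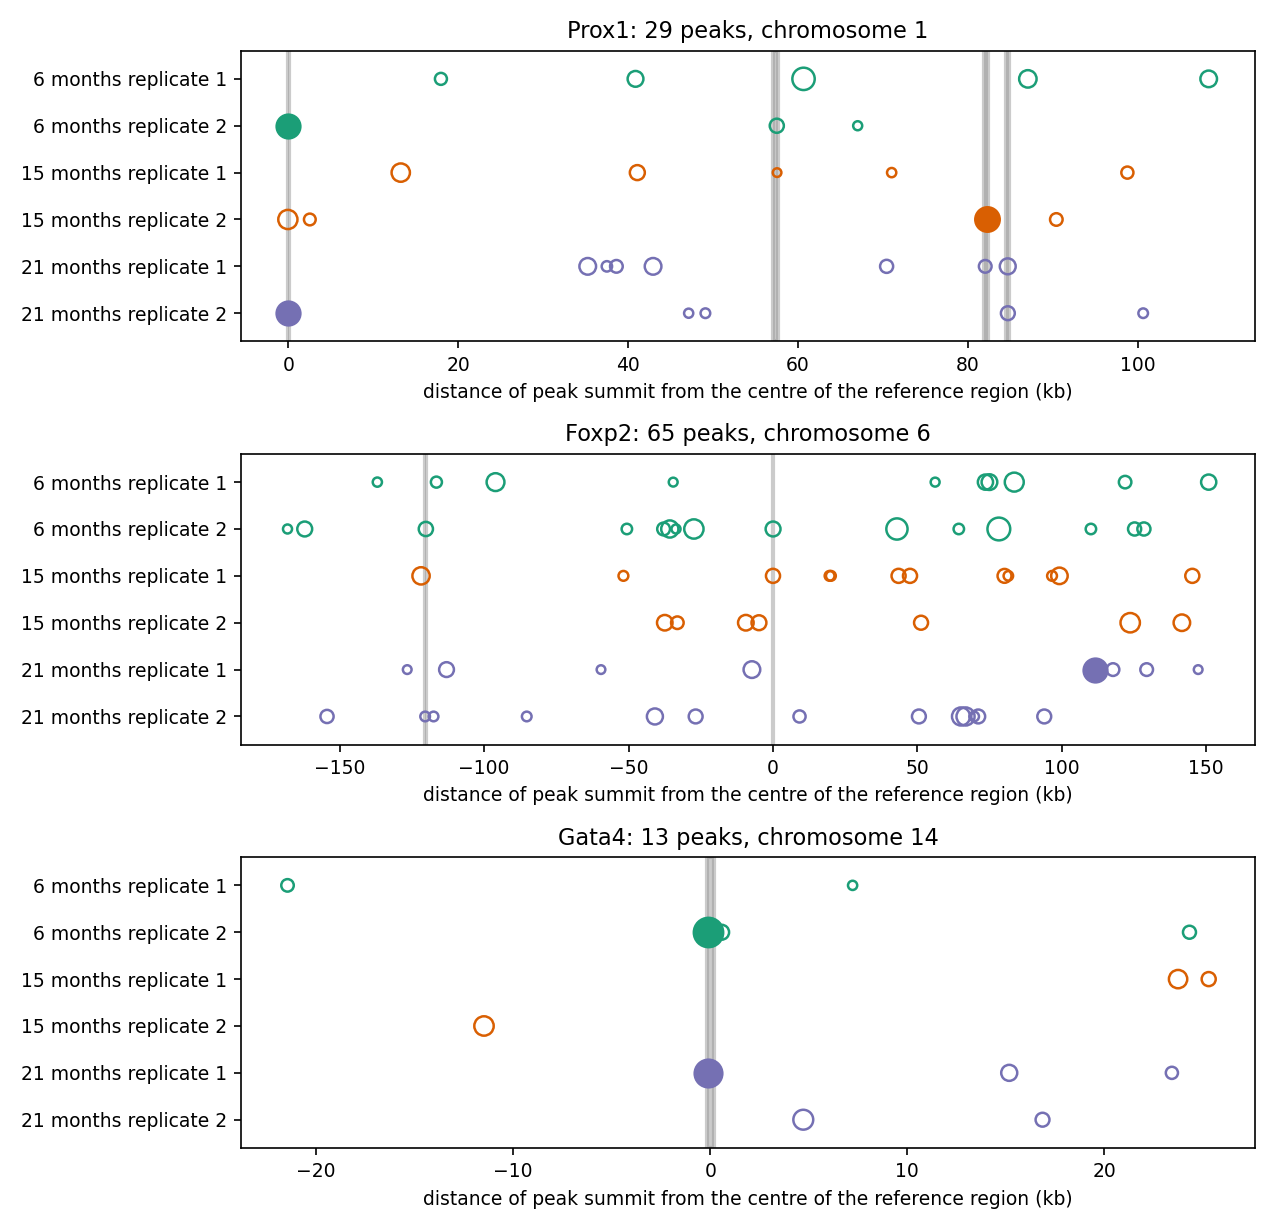
Position of every peak of Prox1, Foxp2 and Gata4 in each mouse, as the distance in kb of its summit from the centre of 1 region found in several mice (for Prox1 the region in 3 mice, for Foxp2 and Gata4 a region in 2). Circle size grows with fold over input, filled circles have q of at most 0.05, colours give the age, and grey bands mark regions with peaks in at least 2 mice. Most circles stand alone in their column, and the filled circles number 3 for Prox1, 1 for Foxp2 and 2 for Gata4.

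The gene with the longest stretch had the most peaks and the gene with the shortest had the fewest. Each stretch runs from a gene's own first to its own last peak, so its length and the number of peaks are not independent. Foxp2 had 65 peaks, the third highest number among the 395 named genes, Prox1 had 29 and Gata4 had 13, while the median named gene had 6. With the 6 lists laid over each other, neighbouring summits were a median of 2427.5 bp apart at Prox1, 2840 bp at Foxp2 and 2095.5 bp at Gata4. The widest distance between neighbouring summits was 17285 bp at Prox1, 25709 bp at Foxp2 and 11383 bp at Gata4. Between the flanking peaks without text, Prox1 peaks were 1.08 times as dense as peaks on the whole of chromosome 1, summed over the 6 mice. The ratio was 0.988 for Foxp2 against chromosome 6 and 0.754 for Gata4 against chromosome 14. The ratio of single mice ran from 0.515 to 2.34 for Prox1, from 0.653 to 1.75 for Foxp2 and from 0.580 to 0.970 for Gata4. Within these limits Gata4 was below the density of its chromosome in 6 of 6 mice. Prox1 was above the density of its own in 4 of 6 and Foxp2 in 3 of 6. These ratios depend on the boundary, which is the same for all 6 mice. For Gata4 the distance between flanking peaks was 86.0 kb, against 47.2 kb from its first to its last peak. The 6 of 6 therefore rests on that 1 boundary and is not read as a lack of peaks at Gata4. For each of the 3 genes the highest ratio was that of replicate 2 at 15 months, which had the shortest list. Its ratios rest on 4 peaks of Prox1, 7 of Foxp2 and 1 of Gata4.

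Most peaks of the 3 genes were shallow, as peaks of the lists were in general. Pileup, which is how many fragments cover the summit, had a median of 5 for Prox1 with a range of 3 to 8, of 4 for Foxp2 with a range of 3 to 11, and of 5 for Gata4 with a range of 4 to 8. Over all 491681 peaks the median was 4. The fold over input had a median of 2.92 for Prox1, 2.92 for Foxp2 and 3.06 for Gata4, against 2.82 over all peaks. The median width was 256 bp for Prox1, 250 bp for Foxp2 and 263 bp for Gata4, against 256 bp over all peaks. Of the 107 peaks, 54 stood on an input background within 1% of the lowest in their list, which is 50.5% against 49.5% of all peaks. For such peaks the fold depends almost only on the pileup, so peaks of 1 list with the same pileup have nearly the same fold. The deepest peak, with a pileup of 11, was a Foxp2 peak of replicate 1 at 6 months at chr6:14964445-14964689. Its input background was 3.67 times the lowest level of its list, the highest such ratio among the 107 peaks, and its fold was only 2.23.

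The limit of q at 0.05 was passed by 6 of the 107 peaks, where 2.21% of all peaks in the lists passed it. At least 1 such peak was held by each of the 3 genes, and by 13.7% of the named genes. These values took part in the choice of the genes and nothing is read from them. The lowest q were those of Gata4, at 0.00192 in replicate 2 at 6 months and 0.00466 in replicate 1 at 21 months. The 6 peaks also include 1 of Foxp2, with q of 0.0353, and 3 of Prox1, with q from 0.0408 to 0.0455. Just outside the limit was a Foxp2 peak of replicate 2 at 6 months at chr6:15077124-15077484, with a fold of 4.15 and q of 0.0523. The next were a Foxp2 peak of the same mouse with q of 0.103 and a Prox1 peak of replicate 1 at 6 months with q of 0.116.

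**Figure D2:**
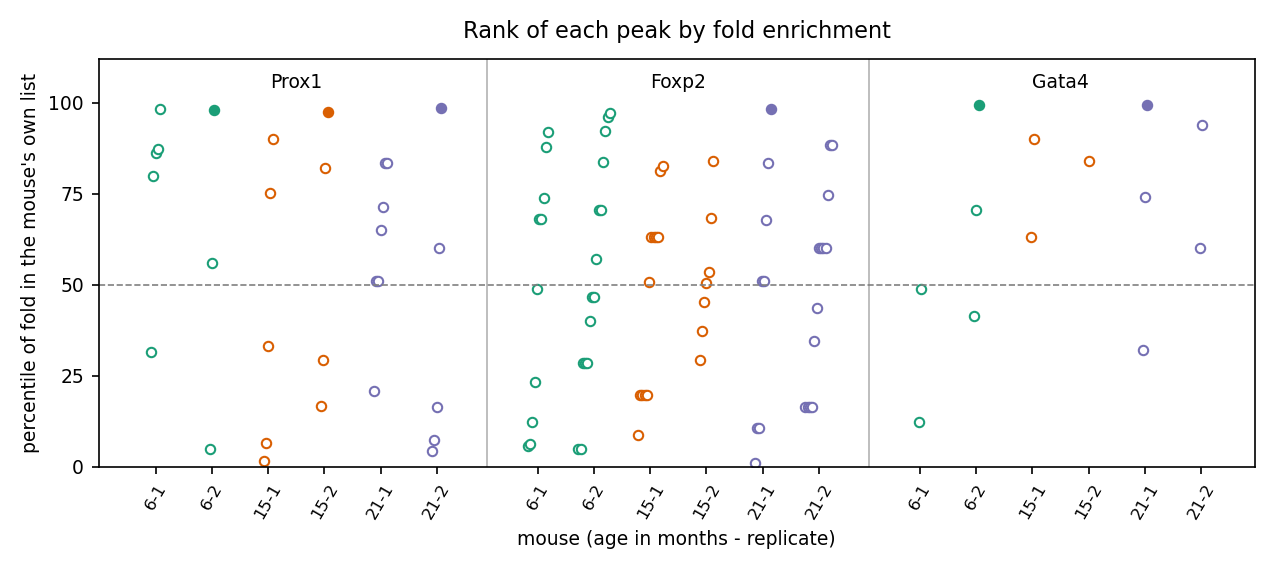
Percentile of each peak's fold among all peaks of the same mouse's list (vertical axis), by gene and mouse (horizontal axis, age in months and replicate number). Filled points have q of at most 0.05 and the dashed line is the middle of the list. Of the 107 points, 45 (42.1%) lie under the 50th percentile and 14 (13.1%) at or above the 90th. Among all peaks these shares were 49.1% and 10.4%. Folds took part in the choice of the genes, so nothing is read from the difference.

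The 107 peaks fell into 99 regions, of which 92 were found in a single mouse. Regions with peaks in at least 2 mice, overlapping by at least 1 bp, numbered 4 for Prox1, 2 for Foxp2 and 1 for Gata4. Together this is 7.07% of the regions, where 6.4% of the 458111 union regions of the whole series were found in at least 2 mice. A region in 3 mice occurred once, at Prox1, and 0.668% of union regions were found in at least 3 mice. All 3 genes had a shared region, as 28.4% of named genes did, and all 3 had peaks in every mouse, as 18.5% did. Both shares cover all 395 named genes, whose median was 6 peaks, whereas Gata4 had 13, Prox1 29 and Foxp2 65. Shares among genes with as many peaks were not compared, so nothing is read from the difference.

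The region of Prox1 in 3 mice lay at chr1:189909859-189910087, at the low end of the stretch of Prox1 peaks. It had a peak in replicate 2 of every age and in replicate 1 of none. In replicate 2 at 6 months the pileup was 6 and the fold 4.29, with q of 0.0435. In replicate 2 at 15 months the pileup was 6 and the fold 3.66, with q of 0.245. In replicate 2 at 21 months the pileup was 7 and the fold 4.29, with q of 0.0408. The q of the mice at 6 and 21 months passed 0.05 and that of the mouse at 15 months did not. The folds ranked at percentiles 98.1, 82.2 and 98.5 of their own lists at 6, 15 and 21 months. Input background was 1.00 to 1.21 times the lowest level of the lists.

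The ends of these 3 peaks nearly coincided. Their starts lay within 3 bp and their ends within 1 bp of each other, they had 225 bp in common, and their summits lay within 59 bp. Of the 2359 regions of the series found in exactly 3 mice with 1 peak each, 9 (0.382%) had starts and ends that each lay within 5 bp, and 7.59% had summits within 60 bp. The median distance between the outer starts of such regions was 262 bp, and between the outer summits it was 255 bp. Of the 2420 regions found in exactly 3 mice, 99 had a peak in these 3 mice, and the 20 possible trios of mice had 53 to 234. The trio holds the shortest list, and of the 10 trios with that list, which had 53 to 116 regions, it had the second highest number. The near-coincidence of the ends was noticed after the values were seen. The reads were not used here, so whether these 3 peaks rest on independent fragments of unique sequence was not tested, and the region cannot be taken as 3 independent detections.

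The other shared regions of Prox1 had 2 mice each. At chr1:189991837-189992315, replicate 2 at 15 months had a pileup of 7 and a fold of 4.39, the highest fold of Prox1 in any mouse, with q of 0.0455. Replicate 1 at 21 months had a pileup of 4 and a fold of 2.76 there. These 2 peaks had only 45 bp in common, and their summits were 152 bp apart. At chr1:189994404-189994805 the 2 mice were those of 21 months, with folds of 3.20 in replicate 1 and 2.92 in replicate 2. The summits were 12 bp apart, and this was the only region among the 7 to be found in both mice of 1 age. At chr1:189967055-189967586, replicate 2 at 6 months had a fold of 2.95 and replicate 1 at 15 months a fold of 2.20, with summits 33 bp apart. None of the peaks in the last 2 regions passed q of 0.05. Replicate 1 at 6 months had 0 of its 5 Prox1 peaks in a shared region, and without the list of replicate 1 at 21 months Prox1 had 2 shared regions in place of 4.

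The shared region of Gata4 held its strongest peaks. It lay at chr14:63493160-63493509 and was found in replicate 2 at 6 months, with a pileup of 8 and a fold of 5.07, and in replicate 1 at 21 months, with a pileup of 8 and a fold of 4.83. Each ranked above the 99th percentile of fold in its list, at 99.4 and 99.3. The summits were 1 bp apart and 194 bp were in common. Among the 26207 regions of the series found in exactly 2 mice with 1 peak each, 0.790% had summits within 1 bp. The median distance was 137 bp, and 0.710% passed q of 0.05 in both mice. The 1 bp limit was the distance found at this Gata4 region itself. Folds and sharing also took part in the choice of the genes, so nothing is read from these shares. The other 4 mice had no peak in this region. Replicate 2 at 6 months had a further Gata4 peak 262 bp away, at chr14:63493772-63494039, with a fold of 3.06.

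Foxp2 had the most peaks of the 3 genes, and 61 of its 63 regions were found in a single mouse. Most regions of the whole series were likewise in a single mouse, with 6.4% of union regions in at least 2. At chr6:14999008-14999292, replicate 2 at 6 months and replicate 1 at 15 months each had a pileup of 4, with folds of 3.06 and 2.95, and 242 bp in common. At chr6:14878678-14879192, replicate 2 at 6 months had a fold of 2.97 and replicate 2 at 21 months a fold of 2.34, with 52 bp in common and summits 248 bp apart. None of these 4 peaks passed q of 0.05, and both regions needed the list of replicate 2 at 6 months. The single Foxp2 peak that passed lay at chr6:15110499-15110785 in replicate 1 at 21 months, with a pileup of 7, a fold of 4.29 and no peak of another mouse on it.

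**Figure D3:**
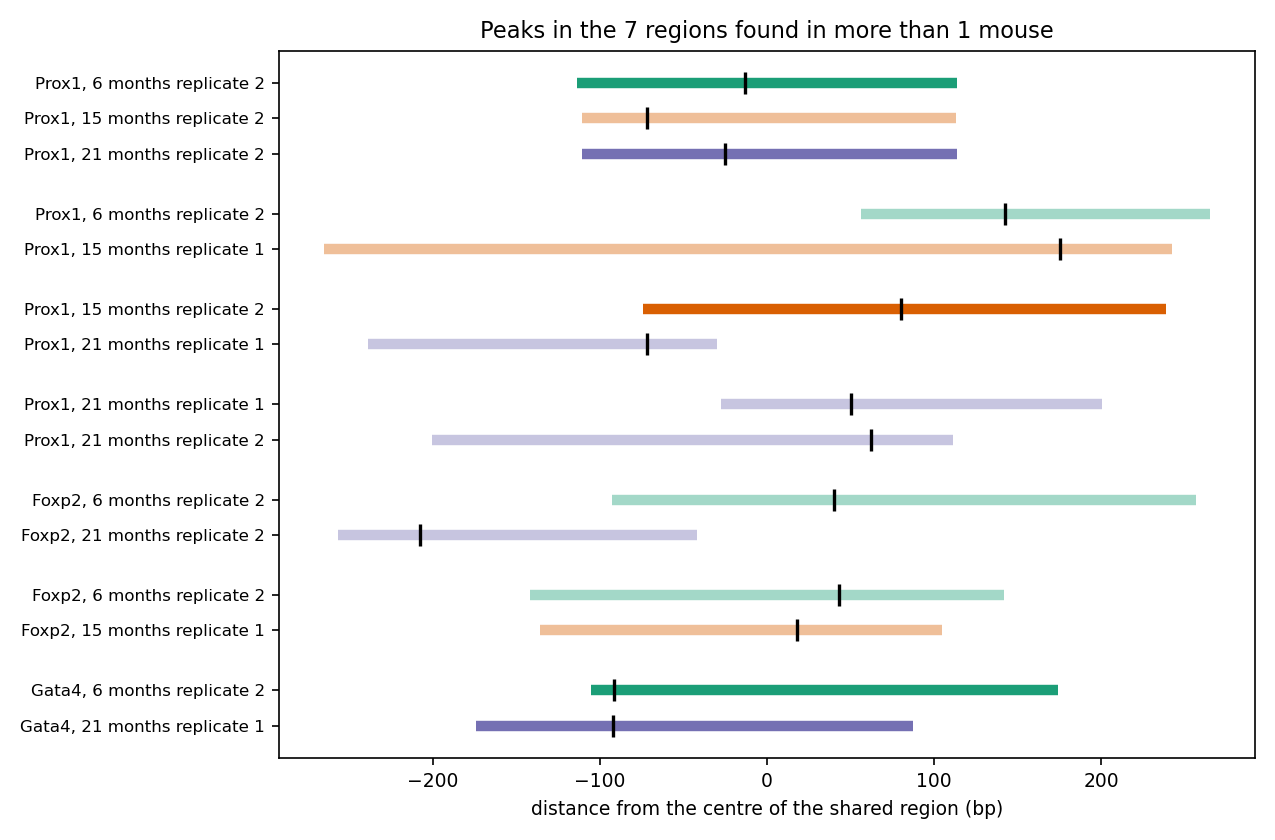
Extent of each peak in the 7 regions found in more than 1 mouse, as the distance in bp from the centre of the region, with 1 bar per mouse and a black tick at the summit. Colours give the age as in the map of peaks, and full colour marks q of at most 0.05. The 3 Prox1 bars at the top begin within 3 bp and end within 1 bp of each other, and the 2 Gata4 ticks at the bottom are 1 bp apart.

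The highest fold of each gene in each mouse varied as follows. For Prox1 at 6 months it was 4.10 in replicate 1 and 4.29 in replicate 2, at 15 months 3.54 and 4.39, and at 21 months 3.31 and 4.29. Replicate 2 was above replicate 1 at each age, and the ages overlapped. For Foxp2 at 6 months it was 3.63 and 4.15, at 15 months 3.39 and 3.69, and at 21 months 4.29 and 3.51, again with overlap of the ages. For Gata4 at 6 months it was 2.73 and 5.07, at 15 months 3.54 and 3.69, and at 21 months 4.83 and 3.75. The 2 mice of 6 months held both the lowest and the highest of the 6 Gata4 values. Over the 6 mice the mean was 3.99 ± 0.451 for Prox1, 3.78 ± 0.363 for Foxp2 and 3.94 ± 0.869 for Gata4 (SD, n = 6 each). Most of these best peaks lay at positions of their own, so the means do not describe 1 site.

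Numbers of peaks were then set against age, a comparison that did not enter the choice of the genes. Prox1 peaks numbered 5 in replicate 1 and 3 in replicate 2 of the mice of 6 months, 5 and 4 in those of 15 months, and 7 and 5 in those of 21 months. Per 10000 peaks of the list these were 0.633 and 0.283, 0.503 and 1.36, and 0.764 and 0.581. The mean was 0.458 ± 0.247 at 6 months, 0.932 ± 0.606 at 15 months and 0.673 ± 0.129 at 21 months (SD, n = 2 each). The mouse with the highest value, replicate 2 at 15 months, had 4 peaks in the shortest list, and its exact 95% binomial interval ran from 0.371 to 3.48. It included the values of 4 of the other 5 mice, the exception being replicate 2 at 6 months. Such intervals cover counting error only.

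Foxp2 peaks numbered 10 and 15 in the mice of 6 months, 12 and 7 in those of 15 months, and 8 and 13 in those of 21 months. Per 10000 peaks these were 1.27 and 1.41, 1.21 and 2.38, and 0.873 and 1.51, so the 3 ages overlapped. The mean was 1.34 ± 0.105 at 6 months, 1.79 ± 0.830 at 15 months and 1.19 ± 0.452 at 21 months (SD, n = 2 each). The highest value was again that of replicate 2 at 15 months, with an exact 95% interval of 0.957 to 4.90. Gata4 peaks numbered 2 and 3 in the mice of 6 months, 2 and 1 in those of 15 months, and 3 and 2 in those of 21 months. Its values per 10000 peaks were 0.253 and 0.283, 0.201 and 0.340, and 0.327 and 0.233. The means were nearly level, at 0.268 ± 0.0209, 0.271 ± 0.0982 and 0.280 ± 0.0670 (SD, n = 2 each) at 6, 15 and 21 months. Peaks of all 395 named genes made up 69.2 to 84.0 per 10000 peaks, with replicate 2 at 15 months the highest at 84.0.

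No trend with age was detected for any of the 3 genes. Pearson's r between age and peaks per 10000 was 0.32 for Prox1 (two-sided exact permutation p = 0.578, adjusted 0.933, n = 6). It was -0.067 for Foxp2 (exact permutation p = 0.933, adjusted 0.933, n = 6) and 0.096 for Gata4 (exact permutation p = 0.822, adjusted 0.933, n = 6). Spearman's rho was 0.36, -0.12 and 0 in the same order, with exact permutation p of 0.533, 0.844 and 1, each adjusted to 1 over the 3 genes. Without the 2 mice of 6 months, which are farthest from the median age, r was -0.39 for Prox1, -0.54 for Foxp2 and 0.078 for Gata4. The smallest p that the 90 assignments of ages to mice allow is 0.0111. The sign of r for Foxp2 turned without replicate 1 at 21 months, to 0.29, and that for Gata4 turned without the same mouse, to -0.21, and without replicate 1 at 6 months, to -0.0098. Without replicate 2 at 6 months r for Prox1 was 0.0086.

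**Figure D4:**
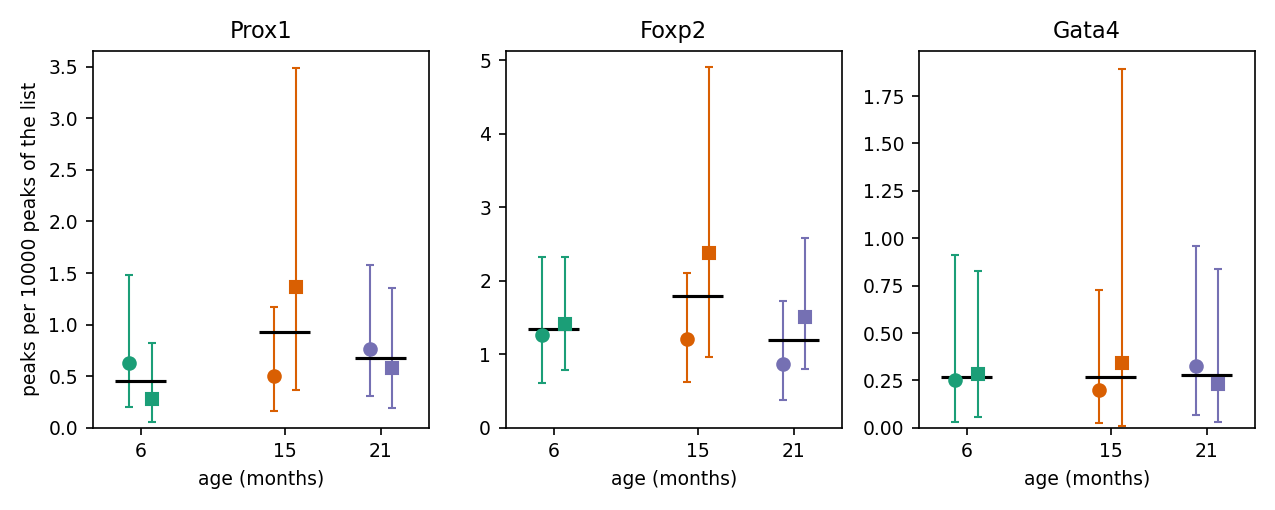
Peaks of each gene per 10000 peaks of the mouse's list (vertical axis) against age in months, with circles for replicate 1 and squares for replicate 2. Error bars are exact 95% binomial intervals of counting error and black lines are means of the 2 mice. The intervals of the 2 mice overlap at each age for all 3 genes, and the widest are those of replicate 2 at 15 months.

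The families of these factors were named only in part. Of 9 paralogues looked for, 3 were named, and they had 11 peaks in all. Foxp1, a forkhead relative of Foxp2 that acts in lymphocytes and heart, had 9 peaks in 5 mice, with a highest fold of 3.69. Gata2 and Gata3, GATA factors of blood cell lineages, had 1 peak each, both at 21 months and in different mice. None of the 3 had a region shared by at least 2 mice, and q was above 0.05 at all their peaks. Over the whole series 6.4% of union regions were shared and 2.21% of peaks passed q of 0.05. With only 11 peaks, nothing is read from this absence. Prox2, Foxp3, Foxp4, Gata1, Gata5 and Gata6 were not named, and their occupancy was not analysed here. Whether Foxp2 and Gata4 differ from their relatives was not tested.

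Among 26 genes of fibre type and slow muscle, 5 were named, 3 of them with peaks in all 6 mice, as 18.5% of all named genes had. Mef2c, a MADS box activator of muscle genes, had 53 peaks. The mice of 6 months had 6 and 15 of them, those of 15 months 15 and 5, and those of 21 months 1 and 11, so the lowest number was in replicate 1 at 21 months, whose list was not the shortest. Ppargc1a, a coactivator of oxidative metabolism, had 35 peaks and Hdac4, a histone deacetylase that represses Mef2 factors, had 17. Myh7b, a myosin heavy chain, had 3 peaks and Mef2a had 2. None of the 5 had a peak that passed q of 0.05, and shared regions numbered 3 for Mef2c and 1 for Ppargc1a. Among all peaks of the series 2.21% passed that limit, and 28.4% of named genes had a shared region. Of 10 heart transcription factor genes only Srf was named, with 8 peaks in 5 mice. Of 5 genes of lymphatic endothelium only Flt4, the receptor for vascular endothelial growth factor C, was named, with 8 peaks in 4 mice. Srf and Flt4 had 0 shared regions and 0 peaks with q of at most 0.05. With 8 peaks each, nothing is read from this absence.

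Named genes whose symbols begin like those of common transcription factor families numbered 35 beside the 3 described here, a rule that also took a few genes that are no such factors, such as Nras and Nrp1. Peaks in all 6 mice were held by 7 of the 35, a shared region by 11 and a peak with q of at most 0.05 by 4. Over all 395 named genes the shares were 18.5%, 28.4% and 13.7% in that order. Differences from these shares were not tested, and nothing is read from the counts. The 4 genes with such a q were Nfkb1, Rarb, Smad4 and Smad7. Rarb, a retinoic acid receptor, had 32 peaks, 2 of which passed, and 1 shared region.

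The genes with the most similar numbers of peaks per 10000 over the 6 mice were taken by the mean absolute difference on a log2 scale after adding 0.1. For Prox1 they were Rarb at 0.42, Tlr2 at 0.42 and Pak1 at 0.43. For Foxp2 they were Atg7 at 0.20, Fzd1 at 0.53 and Grin2a at 0.53. For Gata4 they were Tgfbr1 at 0.14, Rxra at 0.20 and Smad7 at 0.23. Rxra, the partner of TRα on DNA, had 2 peaks in each mouse of 6 months, 2 and 1 in those of 15 months, and 3 and 4 in those of 21 months, which differs from Gata4 by at most 2 peaks in any mouse. These likenesses are over 6 mice, and how far they rest on the total number of peaks of each gene was not tested.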

How the data were processed

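TRα ChIP-seq peak lists of 6 mice were used. MACS2 2.1.1.20160309, Trimmomatic 0.36, SAMtools 1.3.1 and the builds GRCm39 and mm10 are named in the submitters' processing notes. No aligner or calling option is stated there or in the labels. A scaffold of GRCm39 occurs in 5 of the 6 lists, so positions are given on that build. Peak names pair each mouse with its own input, so peaks were called per mouse. The authors deposited, for each peak, the pileup as a signal, the fold as a ratio of pileup to local background, and p and q as −log10 values, with p under 0.01. These are the authors' values and serve to describe peaks within a list.

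Local background was computed by dividing pileup + 1 by the fold and subtracting 1; the Poisson p from it matched the deposited p within 1%. Genes were named from accessions in overflow text with RefSeq's GRCm38.p6 table, which named 3812 of the 3987 peaks with text. Peaks sharing at least 1 bp were merged. Age was tested by exact permutation with Benjamini-Hochberg adjustment over the 3 genes; code was tested on simulated data (Python 3.11.15, scipy 1.17.1). Peaks described singly were those in shared regions, with q of at most 0.05 or with the highest fold; further peaks just past the limit on q, with the highest pileup or beside a shared region were chosen after their values were seen. Most similar genes were the 3 nearest. The members and lists were chosen with earlier results of these data known. Alternatives were stricter peak limits, other overlaps, equal list lengths, unscaled numbers, a replicate block and leaving out each mouse.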

Additional observations from a re-analysis of the deposited data

How the results depend on the processing

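None of the 36 alternative age tests passed an adjusted p of 0.05, and the lowest adjusted p was 0.433. In at least 21 of them 1 gene alone could not have passed. With a mouse left out the 30 assignments allow an adjusted p of 0.1 at the lowest, and with the block the 36 allow 0.0833. Ties between mice raise this limit in further tests, such as Foxp2 with q of at most 0.05, where 1 mouse alone had a peak. Tests that could not have passed say nothing about stability. The sign of r turned in 7 of the 36 tests, and the cause was not tested. These were Foxp2 with q of at most 0.05 (0.508, from 1 peak), Gata4 with a pileup of at least 5 (-0.0148) and as an unscaled number (-0.0787), Prox1 with a fold of at least 3 (-0.07), and 3 that left out a mouse. Leaving out each mouse gave r from 0.00864 to 0.587 for Prox1, -0.308 to 0.293 for Foxp2 and -0.206 to 0.349 for Gata4. With a replicate block r was 0.324, -0.0937 and 0.0987 for Prox1, Foxp2 and Gata4 (exact permutation, adjusted p = 0.889 each). The labels do not say that equal numbers mark a pair, and deviations of same-numbered mice over the 395 named genes correlated at -0.115 to 0.00448.

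Shared regions depended on the settings. With a reciprocal overlap of at least 50% there was 1 for Prox1, 1 for Foxp2 and 1 for Gata4. With q of at most 0.05 there were 1, 0 and 1 in that order, and with a pileup of at least 5 again 1, 0 and 1. Joining peaks up to 500 bp apart gave 6 for Prox1, 9 for Foxp2 and 2 for Gata4. Leaving out each mouse gave 2 to 4 for Prox1, 0 to 2 for Foxp2 and 0 to 1 for Gata4. The regions of Foxp2 fell to 0 without replicate 2 at 6 months and to 1 without replicate 1 at 15 months or replicate 2 at 21 months. That of Gata4 was lost without replicate 2 at 6 months or replicate 1 at 21 months, and those of Prox1 fell to 2 without replicate 1 at 21 months. These settings leave fewer peaks or lists, or ask for more or less overlap. Summits had 3 to 11 fragments, and 6 of the 107 peaks had q of at most 0.05. Whether a missing peak is a site missed at this depth, or a lone peak a background call, was not tested.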

Other observations

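Peaks of different mice also came close without overlapping. Within 500 bp of each other, such neighbours occurred at 11 places, of which 7 were at Foxp2, 2 at Prox1 and 2 at Gata4. One of the Gata4 places is its shared region with the further peak of replicate 2 at 6 months beside it. The share of such places over the whole series was not analysed here, so nothing beyond the density of peaks is read from the count. At Prox1 the closest were peaks of replicate 1 at 6 months and replicate 1 at 15 months, 108 bp apart within chr1:189950626-189951196. At Gata4 the peaks of replicate 1 at 21 months and replicate 1 at 15 months within chr14:63516532-63517099 were 133 bp apart. Of the 7 places at Foxp2, 6 had a peak of replicate 2 at 6 months, which had the longest list.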
